A study of Mus musculus with 7 samples.

Results

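A group of 8 genes of the actin cytoskeleton, taken from the 48440 genes in the deposited table, was described in LSK cells: Asb2, Flna, Palld, Actn1, Actn4, Vasp, Evl and Zyx. These were chosen by gene symbol, with the differences between the groups already known for some of them, so that every difference between the groups in these 8 genes is given as a description. No p-value is printed for them, and whether a fit over all genes called a member is stated without being read as evidence. Filamin A is the filamin among them. LSK cells are negative for lineage markers and positive for Sca1 and cKit, and they include the hematopoietic stem cells and multipotent progenitors. They were sorted 77 days after C57BL/6 mice, irradiated with 9.5 Gy, had received bone marrow (BM) of wild-type donors (4 libraries) or of donors with an endonuclease-mediated PROSER1 knockout (KO) that is constitutive, that is, present in every donor cell (3 libraries). Irradiation and transplantation were therefore shared by both groups. For these libraries, the age of the mice, the number of mice behind each and the share of host cells left in the sort are not given in the sources used here.

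ASB2 is the substrate-recognition subunit of a cullin 5 ubiquitin ligase, and its best known substrates are the filamins, which it marks for degradation by the proteasome. Filamins crosslink actin filaments into networks and tie them to integrins, whereas α-actinins crosslink filaments into bundles. Palladin is a scaffold with immunoglobulin-like domains that binds α-actinin, profilin and proteins of the Ena/VASP family. Zyxin is a LIM domain protein of adhesion sites that also binds α-actinin and recruits Ena/VASP proteins, and these promote the growth of actin filaments at their ends.

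The start regions of Asb2 and Palld are shown because these are the members with the largest differences between the groups. All 8 members had promoter windows of 250 bases before to 50 bases after a transcription start in RefSeq (GRCm38.p6), 12 windows in all. Only the bases before the start are printed, 5′ to 3′ on the gene's own strand, in lower case. Capitals mark the CArG box, the site bound by serum response factor (SRF), a regulator of many cytoskeletal genes. The first Asb2 window (chr12:103356002-103356251, reverse strand) and the second (chr12:103338391-103338640, reverse strand) were:

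Asb2 first start: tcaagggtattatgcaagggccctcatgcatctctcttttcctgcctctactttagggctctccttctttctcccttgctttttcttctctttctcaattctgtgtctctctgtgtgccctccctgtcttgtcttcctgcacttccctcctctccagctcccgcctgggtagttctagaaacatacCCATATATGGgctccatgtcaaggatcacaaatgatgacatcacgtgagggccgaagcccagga

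Asb2 second start: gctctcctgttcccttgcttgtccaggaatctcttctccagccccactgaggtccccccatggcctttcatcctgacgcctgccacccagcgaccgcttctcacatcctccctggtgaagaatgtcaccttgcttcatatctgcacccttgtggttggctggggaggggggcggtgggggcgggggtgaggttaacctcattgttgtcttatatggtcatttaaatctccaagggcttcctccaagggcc

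The Palld windows shown lie at chr8:61902708-61902957 and chr8:61760090-61760339, both on the reverse strand, and a further window that overlaps an annotated untranslated region is not printed:

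Palld first start: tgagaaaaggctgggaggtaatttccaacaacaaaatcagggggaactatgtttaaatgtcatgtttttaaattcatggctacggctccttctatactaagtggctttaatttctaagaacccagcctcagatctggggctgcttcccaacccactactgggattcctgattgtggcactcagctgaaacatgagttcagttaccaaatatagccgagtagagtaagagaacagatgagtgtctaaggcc

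Palld second start: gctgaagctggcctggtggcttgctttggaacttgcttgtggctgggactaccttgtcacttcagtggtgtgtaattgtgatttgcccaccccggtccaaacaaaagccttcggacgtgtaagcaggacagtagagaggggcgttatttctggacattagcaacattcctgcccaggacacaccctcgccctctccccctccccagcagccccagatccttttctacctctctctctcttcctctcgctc

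The CArG box searched for was CC, a run of A or T of the fixed length of this motif, and GG without mismatch, which as a pattern is its own reverse complement. It stood in 1 of the 12 windows, the first Asb2 window, as CCATATATGG with its first base 64 bases before the start. Of all 32851 promoter windows of this length, 1.63% held one, as did 1.81% of the 27025 genes with a window. Among the 9 lists, it was found for 2 of 6 filamin genes and partners, 5 of 21 genes of actin, tropomyosins, myosin and SRF, 4 of 17 zyxin and LIM genes and 2 of 11 integrin adhesion genes. It was also found for 2 of 19 other bundlers and 2 of 22 genes of the ASB list, but for 0 of 8 α-actinin and spectrin genes, 0 of 9 of the palladin list and 0 of 8 of the Ena/VASP list. Neither α-actinin gene and none of the 3 Palld windows held these letters, and such a match is a description of sequence only.

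The 7 libraries held 33143619 to 45140743 read pairs on genes. The mRNA of the targeted gene was not lower in the knockout. Proser1 had normalized counts (read pairs divided by 1 size factor per library) of 2019, 2153, 2103 and 2077 in wild-type and of 2464, 2359 and 2338 in the libraries labelled PROSER1 KO, so that which group is higher or lower is known from the labels alone. The 10 LSK markers, among them Kit and Ly6a, were detected in every library, with summed normalized counts of 111589 to 124622. Lineage genes were also present. The summed counts were 169726 to 430669 for 8 B and plasma cell markers, 6066 to 9767 for 16 T and innate lymphoid markers, 5505 to 8167 for 8 megakaryocyte and platelet markers and 3151 to 5108 for 11 stromal and endothelial markers. They were 2106 to 7031 for 8 granulocyte and monocyte markers, 1092 to 1345 for 6 mast cell and basophil markers and 206 to 340.1 for 6 erythroid markers. In such bulk samples, fewer cells of a type and less RNA per cell cannot be told apart.

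Of the 8 members, Asb2 was lower and Palld higher in all 3 libraries labelled PROSER1 KO than in all 4 wild-type libraries, and the groups overlapped in the other 6. All 8 members passed the minimum of 10 normalized counts on average, as did 16251 genes in all. Of these, 10% did not overlap between the groups (5.17% with every library labelled PROSER1 KO above wild-type and 4.83% below). A gene was called where limma gave a change of more than 1.5-fold with an adjusted p-value below 0.05. This held for 1 member (Palld) and for 0.258% of all genes tested (0.123% higher, 0.135% lower). DESeq2 and limma with robust variance estimates each called 2 members (Asb2 and Palld), against 0.873% and 0.492% of the genes tested with them. Because members were chosen with this contrast known, these shares are printed side by side and nothing is read from them.

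Asb2 (ENSMUSG00000021200) lies on the reverse strand of chromosome 12 from 103321142 to 103356001 (GRCm38, as all positions here). The wild-type libraries, in the order of their replicate numbers as for all genes here, had 368, 233, 198 and 204 normalized counts, and those labelled PROSER1 KO had 131, 110.0 and 108. Wild-type replicate 1 stood well above the other wild-type libraries, which lay close together, and every library labelled PROSER1 KO lay below all of them. On average, wild-type stood at 251 ± 79.9 (SD, n = 4) and the others at 116 ± 13.1 (SD, n = 3). On log2 of normalized count + 1 the difference was -1.06 (limma's standard error 0.22), which placed it 196th among the falls of 16251 genes. Counts were low, with 112 to 383 read pairs per library. Without wild-type replicate 1 the log2 fold change was -0.86.

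Palld (ENSMUSG00000058056, chromosome 8, 61511433 to 61902690, reverse strand) showed the opposite direction. Wild-type libraries had 331, 285, 287 and 253 normalized counts, whereas those labelled PROSER1 KO had 545, 600.0 and 513. The spread within each group was small beside the distance between the groups, as the lowest library labelled PROSER1 KO (513) lay well above the highest wild-type library (331). Averages of 289 ± 32.1 (SD, n = 4) and 552 ± 44.2 (SD, n = 3) gave a 1.91-fold higher level, 0.94 on the log2 scale with a standard error of 0.12, 268th among the rises. It was not called without replicate 2 labelled PROSER1 KO, without the mean-variance trend or with the replicate number as a block.

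**Figure D1:**
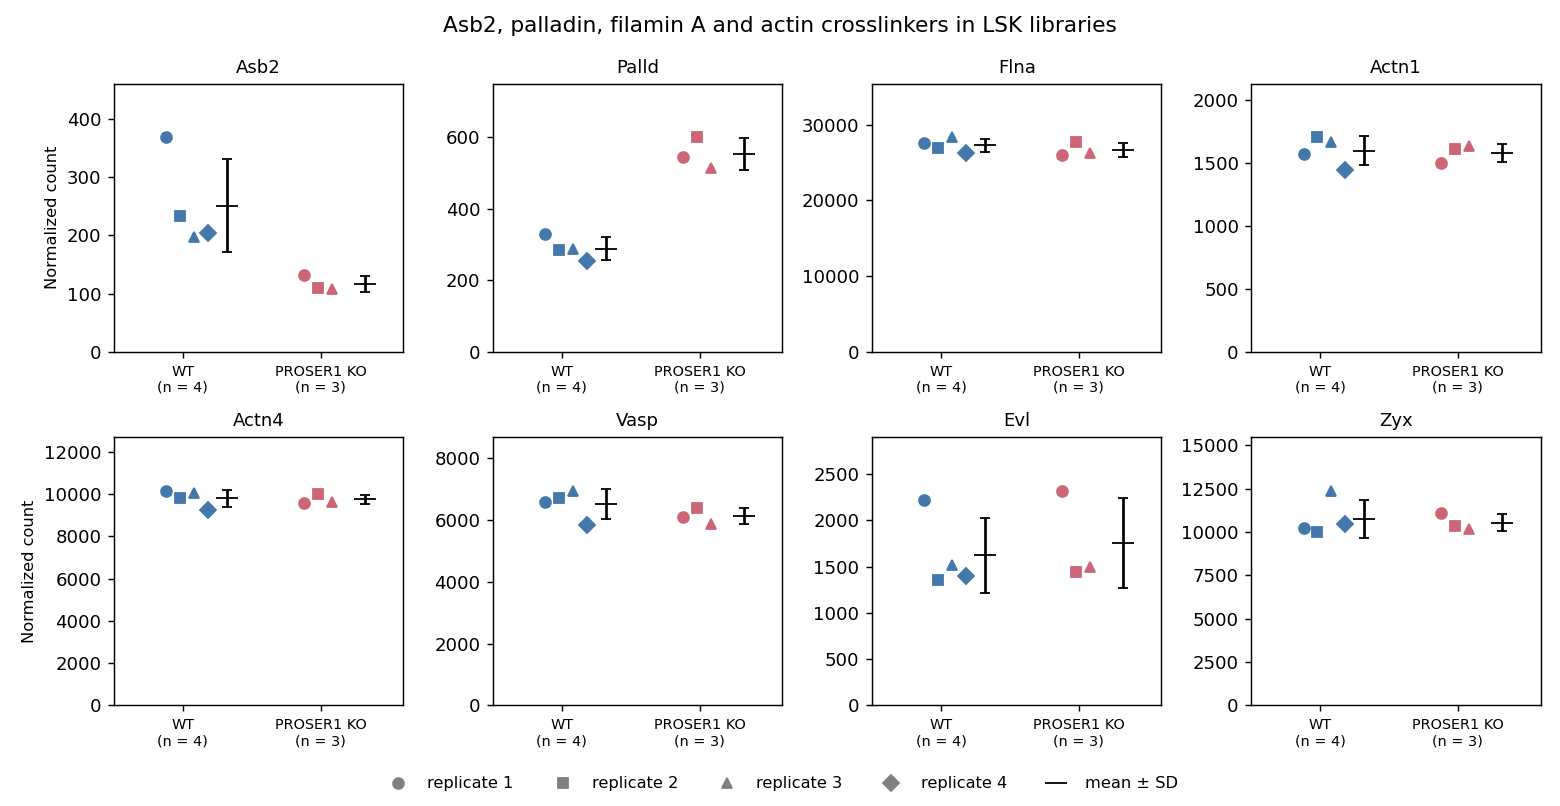
Normalized counts (vertical axes, each starting at 0) of the 8 genes in wild-type (WT, blue, n = 4) and PROSER1 KO (red, n = 3) libraries, with 1 symbol per replicate number and black bars for mean ± SD. The groups are apart for Asb2 (108 to 131 against 198 to 368) and Palld (513 to 600.0 against 253 to 331) and overlap for the others, and Evl is high in replicate 1 of both groups.

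The filamin that ASB2 acts on was much more abundant. Flna (ENSMUSG00000031328, X chromosome, 74223461 to 74249820) reached 27529, 26940.2, 28348 and 26259 normalized counts in wild-type, against 26035, 27672 and 26330.2 under the label PROSER1 KO. All 7 libraries fell within a narrow band and the groups overlapped, and the log2 fold change of -0.03 (standard error 0.047) lay between -0.06 and -0.01 when each library was left out in turn. Only RNA was measured here, whereas ASB2 acts on filamin protein. Flnc, the filamin of muscle, was at 0 in all libraries, where a count of 0 allows 3 read pairs (2.54 to 3.48 normalized counts).

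The α-actinins differed least between the groups. Actn4 (ENSMUSG00000054808, chromosome 7, 28893248 to 28962340) had 10144, 9795, 10026 and 9236 normalized counts in wild-type, against 9578, 9995 and 9638 for PROSER1 KO. Actn1 (ENSMUSG00000015143, chromosome 12, 80167547 to 80260371) had 1569, 1702, 1662 and 1443 against 1499, 1612 and 1631. Their log2 fold changes were both -0.01 (standard errors 0.046 and 0.070), and the sign changed for Actn4 with quantile normalization and for both genes with single libraries left out.

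Zyxin and VASP gave similar pictures. Zyx (ENSMUSG00000029860, chromosome 6, 42349630 to 42360213) had 10219, 10007, 12368 and 10435 normalized counts in wild-type, against 11088, 10353 and 10195 for PROSER1 KO, so that wild-type replicate 3 was highest and the others overlapped. Its log2 fold change of -0.02 (standard error 0.074) became 0.04 without that library. Vasp (ENSMUSG00000030403, chromosome 7, 19256929 to 19271817) had 6603, 6723, 6949 and 5844 against 6109, 6409 and 5892, and the lowest library was wild-type replicate 4. The log2 fold change of -0.09 (standard error 0.064) kept its sign in every alternative.

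Evl (ENSMUSG00000021262, chromosome 12, 108554720 to 108688516), the Ena/VASP protein known from lymphocytes, varied more than any other member between the libraries labelled PROSER1 KO. It had 2224, 1351, 1520 and 1395 normalized counts in wild-type, against 2318, 1446 and 1499 under the label PROSER1 KO. Replicate 1 of each group was high and the other 5 libraries lay between 1351 and 1520, so that the 2 high libraries came from different groups. The log2 fold change of 0.11 (standard error 0.20) turned to -0.11 without replicate 1 labelled PROSER1 KO.

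The same 2 libraries had the highest sums over the 16 T and innate lymphoid markers, 9497 in wild-type replicate 1 and 9767 in replicate 1 labelled PROSER1 KO, against 6066 to 7310 in the other 5. Single markers behind these sums differed between the 2 libraries. Cd3g, a subunit of the T cell receptor complex, had 697 normalized counts in replicate 1 labelled PROSER1 KO and 52.9 in wild-type replicate 1. Gata3 (1589 against 1187) and Rora (1027 against 746) were instead higher in wild-type replicate 1, the highest library for both, as it was for Asb2. Of the 16 markers, 0 were at 0 in all libraries. For Evl, the mean of the 2 libraries was 1.57 times that of the others, and the part of these cells in that difference was not tested. For Asb2, the difference between the groups was present both between these 2 libraries (368 against 131, 2.80-fold) and among the others (211 ± 18.6, n = 3, against 110.0 and 108, 1.94-fold). With both libraries left out, a choice made after seeing the data, its log2 fold change was -0.95, and that of Palld was 1.01 but no longer called.

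**Figure D2:**
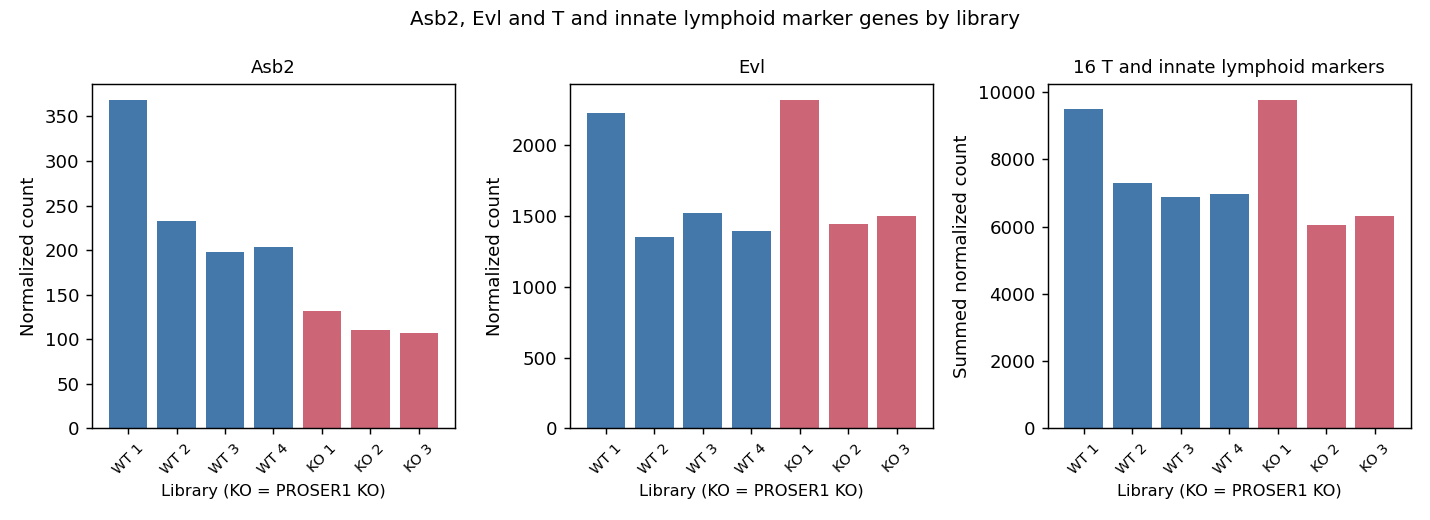
Normalized count of Asb2 and Evl and the summed normalized count of 16 T and innate lymphoid marker genes (vertical axes) in each of 4 wild-type (WT, blue) and 3 PROSER1 KO (KO, red) libraries (horizontal axes). Evl and the marker sum are highest in the libraries numbered 1 of both groups (9497 and 9767 for the sum), whereas Asb2 is high in wild-type replicate 1 only (368 against 131). Single markers within the sum differ between these 2 libraries. Rora is highest in wild-type replicate 1 (1027 against 746), and Cd3g in replicate 1 labelled PROSER1 KO (52.9 against 697).

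Palladin is abundant in fibroblasts and smooth muscle, and the 11 stromal and endothelial markers were therefore set beside Palld. They summed to 3351, 3151, 4352 and 3564 normalized counts in wild-type, against 4343, 4536 and 5108 for PROSER1 KO. The groups thus overlapped slightly, and Pdgfrb and Emcn made up most of the sum. Within each group, the sum was highest in replicate 3. Palld was instead highest in wild-type replicate 1 (331) and in replicate 2 labelled PROSER1 KO (600.0), and lowest of its group in replicate 3 labelled PROSER1 KO (513). Emcn did not overlap between the groups (688 to 806 against 859 to 1077), as was the case for 10% of all genes tested. Of the 11 markers, 0 were at 0 in all libraries. Among collagen and fibroblast genes, Dcn had at most 10.6 normalized counts, Pdgfra 15.4 and Col3a1 21.9, whereas Col1a1 had 19.5 to 59.5 and Col1a2 102 to 196, and the smooth muscle genes Acta2, Cnn1 and Myl9 were at 0 in all 7 libraries. Of the 8 markers that could be tested, 6 had a log2 fold change above 0 and 0 were called, with a median of 0.44. The 2 below 0 were the collagen genes Col1a1 (-0.14, standard error 0.39) and Col1a2 (-0.10, standard error 0.27). The highest were Cxcl12, a chemokine of marrow stroma (1.59, standard error 1.2), and Lepr, the leptin receptor (1.28, standard error 0.68). The endothelial genes Cdh5 (141 ± 81.9 against 182 ± 75.9) and Kdr (177 ± 70.8 against 257 ± 125) also had higher means under the label PROSER1 KO, and all 4 overlapped between the groups. The part of such cells in the Palld difference was not tested.

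Scaled by length, the members spanned a wide range of levels. In normalized counts per kb of merged exon over the 7 libraries, Flna was highest (mean 2874, range 2770.0 to 3016), followed by Vasp (2431), Zyx (1979), Actn4 (1595), Evl (571), Actn1 (287), Asb2 (54.5) and Palld (39.0). Each exceeded the next in all 7 libraries except at the end of the order, where Asb2 was above Palld in the 4 wild-type libraries and below it in the 3 labelled PROSER1 KO. The order of the leading 3 depended on the length used, as Zyx came first (3346) and Flna second (3195) per kb of the longest transcript.

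Paralogs were compared within each library, which does not use the contrast between the groups, with a two-sided exact paired permutation test over the 7 libraries. Actn4 exceeded Actn1 5.56-fold per kb (log2 ratio 2.47 ± 0.064, SD, n = 7, exact permutation p = 0.0156), and Evl was below Vasp (-2.12 ± 0.34). Enah, the Ena/VASP protein Mena, was far below Evl, which exceeded it 122-fold (6.93 ± 0.61). This size depended on the length used, as the log2 ratio was 6.43 per kb of the longest transcript. Each of these orders held in 7 of 7 libraries with the same exact permutation p-value of 0.0156, the smallest that 7 libraries allow, and 0.0156 after Benjamini-Hochberg adjustment over the 3 pairs. The Actn4 to Actn1 ratio varied least between libraries and that of Evl to Enah most. For Evl to Enah, the log2 ratios were 7.47, 6.89, 7.41 and 7.15 in wild-type, against 7.40, 6.26 and 5.95 for PROSER1 KO. The pooled SD of this ratio thus also holds a difference between the groups, which overlapped through replicate 1 labelled PROSER1 KO.

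**Figure D3:**
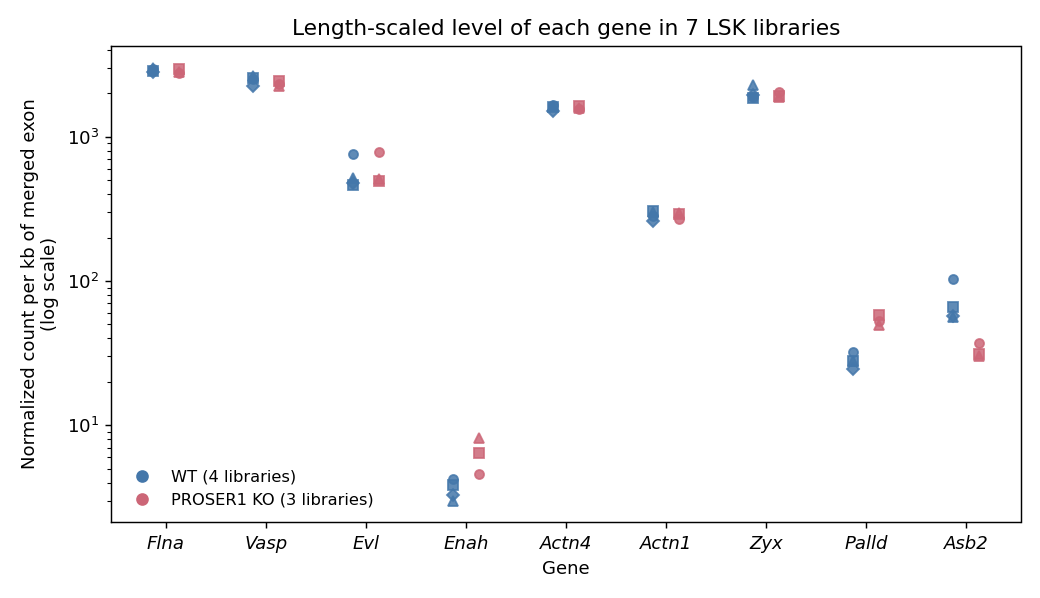
Normalized count per kb of merged exon (vertical axis, log scale) of 9 genes (horizontal axis) in 4 wild-type (WT, blue) and 3 PROSER1 KO (red) libraries, with symbols for replicate numbers as in the plot of the 8 genes. Actn4 lies 5.56-fold above Actn1 on average over both groups, Flna is highest, and Enah is lowest.

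The other genes of these families were counted in 9 lists with 150 genes, 142 of them not members. Among the 117 of these that could be tested, 0 were called with limma and 0 with edgeR, while DESeq2 called 4. Over all genes tested, limma called 0.258%, edgeR 40 genes and DESeq2 0.873%. At such shares, 0 calls are likely in lists of this size, and nothing is read from the counts in any list. Of the 117, 16 had an unadjusted p-value under 0.05 from limma (7 higher, 9 lower), against 1582 of all 16251 genes tested. The median log2 fold change of the 117 was 0.01, against 0.00148 over all genes tested. Besides Asb2 and Palld, several genes of the lists (Synpo, Nrap, Afap1, Ajuba and Tpm2) appear in the study's table of genes from these libraries, which had been read when the lists were written, so that their differences are not independent evidence.

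In the list of the ASB family and its cullin 5 ligase, 17 of 24 genes were tested, 0 were called, and the median log2 fold change was -0.05. Asb2 was its largest fall. The partners that join an ASB protein to the ligase were abundant, with Cul5 at 2076 ± 55.6 (SD, n = 4) and 2195 ± 114 (SD, n = 3) normalized counts and Rnf7, its RING subunit, at 1965 ± 101 and 1856 ± 83.6. Asb3 had the largest positive log2 fold change, 0.15 (adjusted p = 0.570 from limma). Asb9 and Asb18 were at 0 in all libraries. Of 9 filamin genes and partners, 7 were tested and 0 called, with a median of 0.06 and extremes at Fblim1 (0.46) and Filip1l (-0.09). All 11 α-actinin and spectrin genes were tested and 0 called (median -0.01), with extremes at Sptb (0.60) and Sptbn4 (-0.73).

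In the list of palladin's family and partners, 9 of 11 genes were tested, with a median of -0.05, and Palld was the 1 gene called. Mypn and Myot, its muscle paralogs, were at 0 in all libraries. Profilin 1 (Pfn1, 22127 ± 1120 and 21407 ± 923) and Lasp1 (6575 ± 227 and 6370.3 ± 469), both palladin partners, overlapped between the groups, and Pfn2 had the lowest log2 fold change (-0.23).

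All 9 genes of the Ena/VASP list were tested, 0 were called, and the median was 0.01, with Vasp lowest. Enah was at 90.4, 82.0, 64.4 and 70.7 normalized counts in wild-type, against 99.1, 137 and 176 for PROSER1 KO. These groups did not overlap although replicate 1 labelled PROSER1 KO lay close to wild-type replicate 1, and the log2 fold change of 0.80 (standard error 0.23) did not pass the threshold (adjusted p = 0.282 from limma). The group means of its paralogs Vasp and Evl lay closer together.

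Among 23 other actin bundlers, 20 were tested and 0 called, with a median of -0.08, and the extremes were wide. Nrap, an actin-binding protein known from striated muscle, had 42.3, 102, 73.6 and 38.3 normalized counts in wild-type against 9.60 to 17.7 for the 3 PROSER1 KO libraries. Its log2 fold change was -2.17, with limma's adjusted p = 0.0855 and a standard error of 0.41. Afap1l2 had the largest positive value, 1.56, but 0.90 to 37.1 and 19.8 to 52.8 normalized counts, so that the groups overlapped (standard error 0.88, adjusted p = 0.608 from limma). In contrast, Lcp1 (L-plastin), the main bundler of leukocytes, had 32148 ± 1717 and 31676 ± 1526 normalized counts.

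Of 22 zyxin and LIM adhesion genes, 19 were tested and 0 called (median 0.03), with extremes at Fhl1 (0.42) and Ajuba, a LIM protein related to zyxin (-0.88, standard error 0.22, adjusted p = 0.204 from limma). Of 18 integrin adhesion genes, 15 were tested and 0 called. In this list 14 of the 15 had a log2 fold change above 0, with a median of 0.08 and extremes at Fermt2 (0.33) and Tln1 (-0.01), against 50.6% above 0 among all genes tested. The megakaryocyte and platelet markers (7 of 8 above 0, median 0.19) and the stromal and endothelial markers (6 of 8, median 0.44) leaned the same way, and their part in the integrin list was not tested. Of 23 genes of actin, tropomyosins, myosin and SRF, 18 were tested and 0 called (median 0.01), with extremes at Myh10 (0.50) and Tpm2 (-0.58, standard error 0.11, adjusted p = 0.0944 from limma). Srf itself had 2807 ± 175 and 2667 ± 90.9 normalized counts and β-actin (Actb) 62268 ± 2572 and 62339.6 ± 2711.

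**Figure D4:**
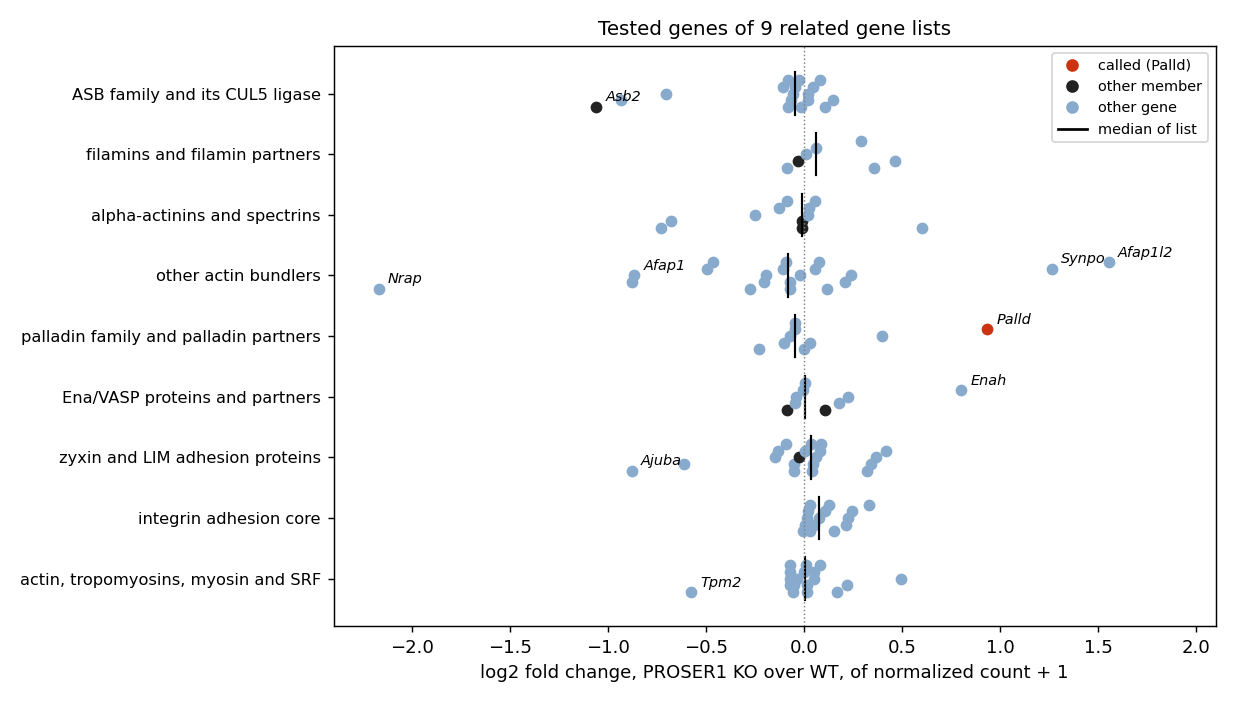
Log2 fold change of normalized count + 1, PROSER1 KO over wild-type (WT, horizontal axis), of the tested genes in each of 9 lists (vertical axis), with the called gene in red, other members in black, other genes in blue and a line at each list's median. The medians lie between -0.08 and 0.08, and Palld (0.94) is the 1 gene called.

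The genes whose values across the 7 libraries were most like those of Asb2 were Chdh (Pearson's r = 0.992 on log2 of normalized count + 1), Id2 (0.989) and Dll1 (0.981). Chdh encodes choline dehydrogenase, Id2 an inhibitor of helix-loop-helix transcription factors known from innate lymphoid cells, and Dll1 a Notch ligand. Id2 had 1104, 720.3, 640.2 and 659.6 normalized counts in wild-type, against 523, 441 and 459 for PROSER1 KO. Like Asb2, it was highest in wild-type replicate 1 and lower in all libraries labelled PROSER1 KO. Those most like Palld were Sntb1 (0.985), which encodes the dystrophin-associated protein β1-syntrophin, Slc25a12 (0.978), which encodes a mitochondrial carrier, and Cryab (0.973), which encodes a small heat shock protein. Cryab had 21.2, 12.6, 12.6 and 16.2 normalized counts in wild-type, against 72.0, 123 and 60.5 for PROSER1 KO. These r values describe 7 libraries that fall into the groups compared, and they follow the difference between the groups.

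Overlapping genes annotated on the other strand were nearly silent at Asb2 (Gm15523) and Palld (4930512H18Rik), with at most 1.92 normalized counts in any library. At Evl, the highest value was 14.4 (Degs2), and at Zyx it was 116 (Epha1). The kit marks strand, but whether counting used it is not stated.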

How the data were processed

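RNA of sorted LSK cells was sequenced in 7 libraries, 4 of wild-type and 3 of PROSER1 KO. The authors used Trimmomatic for trimming and STAR for mapping to mm10, assigned read pairs to genes with featureCounts and scaled each library by its DESeq2 size factor. What they deposited is thus a size-factor-normalized signal, for which limma was used. Every value was a whole multiple of 1 step per library (100% within 0.01 read pairs), from which read pairs were recovered. Per-sample columns left unused numbered 0. Depth was 33143619 to 45140743 read pairs on genes, and limits of 3 read pairs cover counting error only. The 685 genes without a symbol stayed in the tests.

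Values on the log2(normalized count + 1) scale entered limma 3.58.1 (R 4.3.3, lmFit and eBayes with trend). The 16251 genes averaging 10 or more were tested, and fold changes of low genes are understated on this scale. Genes changed over 1.5-fold were called where p after Benjamini-Hochberg adjustment was below 0.05. The study used DESeq2 and reported 165 genes at the same thresholds, which is the number that DESeq2 called here. DESeq2 1.42.0 and edgeR 4.0.16 (quasi-likelihood, TMM) on recovered read pairs were alternatives, besides other pseudocounts, filters, variance models, normalizations, a replicate block and each library left out. The procedures were tested on simulated data. Libraries of a group differed by more than counting noise (chi-square over its degrees of freedom, 30.4 to 96.6). They are labelled biological replicates, and it is not stated what a library pools.

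Positions and lengths come from GENCODE release M21 (GRCm38), and promoters from RefSeq (GRCm38.p6). The methods name GENCODE release 25 for the counting, whereas the gene ID column of the deposited table is headed as release M10, so that lengths behind the levels per kb may differ from those of the gene models counted. Members and lists were chosen with earlier results of these data known. Genes named are the members and their paralogs, called genes of the lists, each list's largest rise and fall, and the 3 genes most like Asb2 and Palld. One comparison of paralogs set at the start is not reported here. Values of partners, markers, overlapping genes, Lcp1, Actb and Srf were chosen after their values were seen.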

Additional observations from a re-analysis of the deposited data

Results flagged for a closer look

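Among 30 genes checked in the 4 wild-type libraries, 4 had 1 library far from the other 3 by the gap between it and its nearest neighbour, and chance alone gives about 1 in 20 such gaps. Chdh was checked as the gene most like Asb2 over these same libraries, so that a high library shared by both is not independent of that choice. Chdh had 2843 normalized counts in wild-type replicate 1 and 2024 to 2036 in the others, and Asb2 was also highest in that library (368). Tpm2 had 355 there and at most 303 in the others. Ajuba had 161 in wild-type replicate 2 against 106 to 114. Fblim1 had 47.5 in wild-type replicate 4 against 18.0 to 20.2.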

How the results depend on the processing

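Genes called between the groups numbered 42. This became 17 without the mean-variance trend, 80 with robust variance estimates, 165 with DESeq2 and 13 with both libraries numbered 1 left out (chosen after seeing the data), and 23 to 42 with single libraries left out, the lowest without PROSER1 KO replicate 2. In the related lists, where 1 gene (Palld) was called, the count was 0 without the trend, 0 with both libraries numbered 1 left out, 4 with robust estimates (Afap1, Asb2, Nrap and Palld), 6 with DESeq2 (Afap1, Ajuba, Asb2, Nrap, Palld and Synpo) and 0 to 1 with single libraries left out, where it was 0 without PROSER1 KO replicate 2. Among the 8 members, the count was likewise 1, with 0 in the first and second of these settings, 2 with robust estimates and with DESeq2 (Asb2 and Palld), and 0 to 1 with single libraries left out. The other 68 values for these counts and the paralog ratios kept their direction and side of the threshold or lay within 1.5 times the value reported, with edgeR, TMM and quantile normalization, other pseudocounts and other filters included.

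Whether equal replicate numbers mark a shared step is not stated. The correlations of same-numbered libraries, after group means were taken out, were 0.0226, 0.0575 and -0.106 over 16251 genes. Those of libraries with unequal numbers lay between -0.131 and 0.142. Such correlations over all genes cannot exclude a shared step that acts on some genes only. With the replicate number as a replicate block, 35 genes were called, 26 of them among the 42, and 0 in the related lists and 0 among the members. The comparison of Flna with Flnc was not run because Flnc was at 0.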
